A study of Mus musculus with 9 samples.

Results

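The ErbB family of receptor tyrosine kinases, its ligands and its receptor-bound inhibitors were examined in MyC-CaP cells, a mouse prostate cancer line, treated with asporin (ASPN), a protein secreted by fibroblasts of the tumor stroma. The genes were taken from a list of 10 names covering the receptors Erbb2, Erbb3 and Egfr, the ligands Areg, Ereg, Hbegf, Tgfa and Btc, and the inhibitors Errfi1 and Lrig1. Of these 10, 8 were found among the 15384 protein-coding genes of the count table, and Areg and Ereg were not analysed here. RNA-Seq was performed on 9 libraries, 3 each of cells at 0, 12 and 24 hours with 100 ng/mL recombinant mouse ASPN, after all cells had been kept in medium without serum and calcium. The labels name ASPN as the treatment at 0 hours too, and these libraries are called time 0 below. Untreated cells of 12 and 24 hours were not analysed here, so that ASPN and the hours in culture cannot be told apart. The labels call the replicates biological, but all come from 1 line, and p-values measure the spread between these libraries. In the comparisons below, time 0 is shared by the 12-hour and the 24-hour comparison.

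ErbB receptors are activated when a ligand of the EGF family binds the extracellular part of EGFR, HER3 or HER4 and the receptors pair. HER2, encoded by Erbb2, has no known ligand of its own and is the preferred partner of the others, and HER3, encoded by Erbb3, has a weak kinase and signals through its partner, mainly to PI3K. The ligands are made as membrane-bound precursors that proteases release from the cell surface. The family is restrained from within: MIG6, encoded by Errfi1, binds and blocks the active kinase of EGFR and HER2 and is known as a target gene of ERK signaling, and LRIG1 binds ErbB receptors and promotes their breakdown.

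Library totals were 41881191 to 52993821 counts, and the normalization factors (TMM) were 1.04 to 1.07 at 0 and 12 hours and 0.898 to 0.911 at 24 hours. Replicates of 1 time differed by more than counting noise in all 9 pairs (chi-square divided by its degrees of freedom, 3.41 to 17.5), most between replicates 1 and 2 of 24 hours. The labels describe the cells as epithelial-like. Of the markers of prostate luminal epithelium, Foxa1, Hoxb13 and Krt8 were expressed in every library, at 24.8 CPM or more. Epcam and Cdh1, which mark epithelium, had 0 to 10 counts per library, and Krt18 had 2 to 22. Of 5 fibroblast markers in the table Pdgfra was expressed, with 8.58 to 13.8 CPM, whereas Col1a1, Pdgfrb, Dcn and Aspn had 0 to 29 counts per library. The summed levels of basal, leukocyte and endothelial markers stayed below 1 CPM.

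After 24 hours with ASPN, the mRNA of HER2 was 1.94-fold lower than at time 0, the ligand gene Hbegf was 2.39-fold higher and the inhibitor gene Errfi1 was 1.67-fold higher. After 12 hours none of the 8 genes passed the thresholds, although the 95% intervals of Btc and Hbegf reached past 1.5-fold. A gene was called differentially expressed when it changed by 1.5-fold or more and its p-value in edgeR's quasi-likelihood test, adjusted over all tested genes by the method of Benjamini and Hochberg, did not exceed 0.05, the thresholds of the study. Levels are given as CPM, counts scaled to a common library size with TMM factors. All 8 genes passed the filter on low counts. At 12 hours 0 of 8 were called, where 1.60% of 11410 tested genes were, and 3 (Egfr, Hbegf and Lrig1) passed the adjusted p-value alone, as did 10.3% of all tested genes. With DESeq2's Wald test 0 of 8 were called at 12 hours, and 177 of all 11410 tested genes were. In edgeR 6 of 8 had an unadjusted p below 0.05 at 12 hours. The share of all tested genes with such a p was not counted, so that this number has no background. At 24 hours 3 of 8 were called, 2 higher and 1 lower, and 28.8% of 11444 tested genes were called (12.0% higher and 16.8% lower), so that the share among these few genes is not set apart from the background. By the adjusted p-value alone 5 of 8 passed, as did 70.9% of all tested genes, and for 6 of 8 the libraries of 24 hours and time 0 did not overlap, as for 74.0% of all. The same 3 genes were called between 12 and 24 hours, where 25.7% of 11394 genes were (10.4% higher and 15.3% lower), and 6 of 8 passed the adjusted p-value alone, as did 71.3% of all. Over the 8 genes the log2 fold change had a median of 0.16 after 12 hours and 0.14 after 24, against -0.0049 and -0.016 over all tested genes. If libraries were scaled by their total counts alone, the median of all tested genes at 24 hours shifted to -0.24, and among the 8 genes 1 was called higher (Hbegf) and 3 lower (Erbb2, Erbb3 and Egfr).

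**Figure D1:**
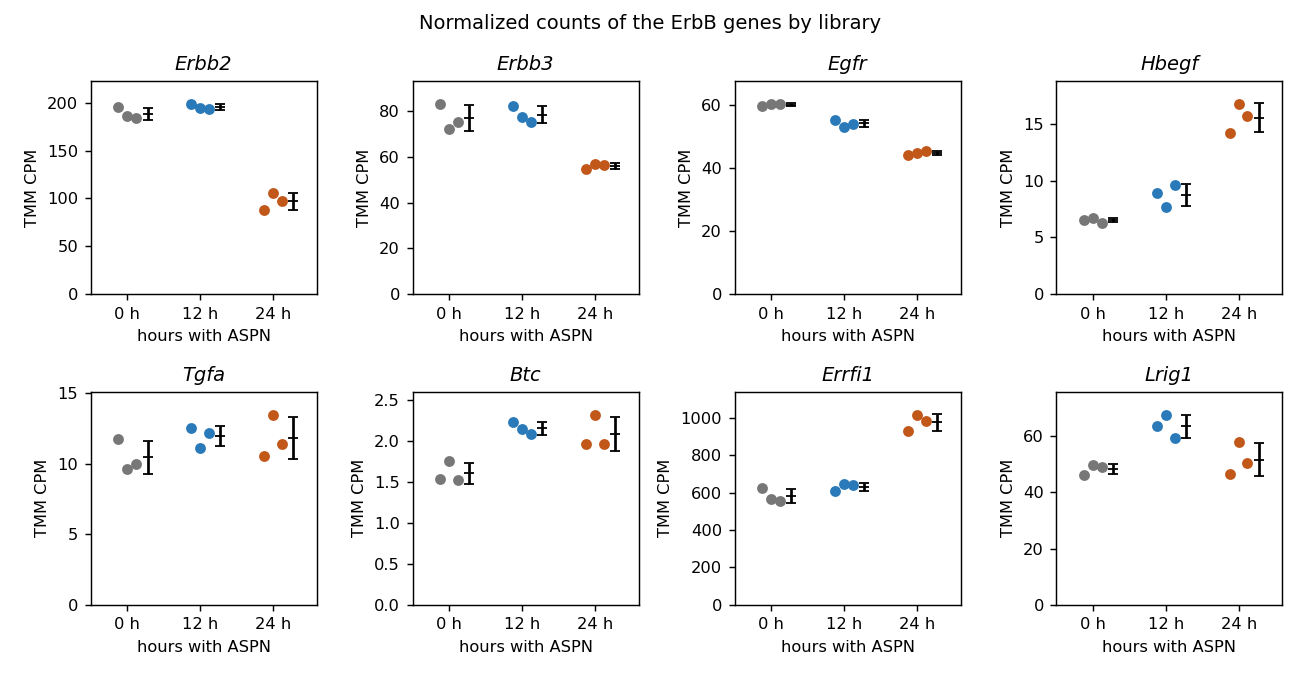
CPM after TMM scaling (y axis, from 0) at 0, 12 and 24 hours with ASPN (x axis) for each of the 8 genes; each point is 1 library and the bars give the mean ± SD of 3. Erbb2 is 184 to 196 CPM at time 0 and 87.8 to 106 at 24 hours, Hbegf goes from 6.30 to 6.71 CPM to 14.2 to 16.8, and Errfi1 goes from 557 to 628 CPM to 929 to 1019.

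Of 3 tested receptor genes, Erbb2 was called lower at 24 hours, and Erbb3 and Egfr passed the adjusted p-value but not 1.5-fold. Erbb2 (ENSMUSG00000062312.5; chromosome 11, 98412470 to 98437716, plus strand, in GRCm38) had 196, 186 and 184 CPM in the 3 libraries of time 0, 199, 195 and 193 CPM at 12 hours and 87.8, 106 and 97.8 CPM at 24 hours. The values of 0 and 12 hours interleaved, and all 3 libraries of 24 hours lay far below them. Its log2 fold change was 0.06 at 12 hours (95% interval -0.01 to 0.13) and -0.96 at 24 hours (SE 0.06, edgeR adjusted p = 9.7e-09), and of 11444 tested genes 957 had a lower value at 24 hours. Between 12 and 24 hours Erbb2 fell by 0.99 on the log2 scale (SE 0.05, edgeR adjusted p = 2.7e-09). At 24 hours the call was kept under each alternative tried, of which a correction for length and GC content gave the smallest change from time 0, a log2 fold change of -0.73. The luminal marker Foxa1 was lower at 24 hours as well, from 225 to 240 CPM to 88.0 to 95.5, and its part in the Erbb2 result was not tested. In these bulk libraries, fewer cells that express a gene and less mRNA per cell cannot be told apart.

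Erbb3 (ENSMUSG00000018166.8; chromosome 10, 128567523 to 128589652, minus strand) had 83.2, 72.3 and 75.4 CPM at time 0, 82.5, 77.6 and 75.4 CPM at 12 hours and 54.5, 57.0 and 56.6 CPM at 24 hours. The libraries of 0 and 12 hours overlapped and those of 24 hours lay below all of them. On the log2 scale Erbb3 differed by 0.03 at 12 hours (95% interval -0.07 to 0.14) and -0.46 at 24 hours (SE 0.05, edgeR adjusted p = 5.3e-06), which passed the adjusted p-value but not 1.5-fold. Egfr (ENSMUSG00000020122.16; chromosome 11, 16752203 to 16918158, plus strand) passed the adjusted p-value already at 12 hours, with 59.6, 60.3 and 60.2 CPM at time 0, 55.3, 53.0 and 54.0 CPM at 12 hours and 44.2, 44.7 and 45.3 CPM at 24 hours. The 3 times did not overlap, as in 27.1% of all tested genes between 0 and 12 hours and 73.8% between 12 and 24 hours. Its log2 fold change was -0.15 at 12 hours (SE 0.04, edgeR adjusted p = 0.013, and up to 0.085 without 1 of the libraries) and -0.42 at 24 hours (SE 0.04, edgeR adjusted p = 1.3e-06). Erbb4, the remaining receptor gene, had 1 count in 1 of the 9 libraries, which is under the floor of 3 counts, or 0.0566 to 0.0716 CPM.

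The 250 bases before the transcript start (RefSeq, GRCm38.p6) are shown for the receptor genes Erbb2 and Egfr, with the letters of GC box and CCAAT box matches in capitals. They were searched on either strand for the GC box (GGGCGG), the CCAAT box (CCAAT), the TATA box (TATAAA), the AP-1 site (TGANTCA), the E-box (CACGTG) and the cAMP response element (TGACGTCA). The Erbb2 window is chr11:98412234-98412483 on the plus strand and the Egfr window is chr11:16751953-16752202 on the plus strand.
Erbb2: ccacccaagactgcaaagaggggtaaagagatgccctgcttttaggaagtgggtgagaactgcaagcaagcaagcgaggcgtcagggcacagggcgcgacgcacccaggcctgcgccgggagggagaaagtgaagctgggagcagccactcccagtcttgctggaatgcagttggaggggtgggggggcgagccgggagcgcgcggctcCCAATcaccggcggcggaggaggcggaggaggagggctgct
Egfr: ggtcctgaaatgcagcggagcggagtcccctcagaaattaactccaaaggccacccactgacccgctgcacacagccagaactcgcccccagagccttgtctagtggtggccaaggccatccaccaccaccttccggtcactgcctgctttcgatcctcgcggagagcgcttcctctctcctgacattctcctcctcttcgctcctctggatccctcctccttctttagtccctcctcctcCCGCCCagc
Both windows are rich in G and C (66.0% for Erbb2 and 60.8% for Egfr) and hold no TATA box, which 12.4% of 32851 promoter windows hold. The Erbb2 window has 1 CCAAT box, which starts 41 bases before the transcript start and is found in 33.8% of all windows, and the Egfr window has 1 GC box 9 bases before the start, found in 32.7%. They shared none of the 6 motifs. A match is a match of letters and was not tested for binding.

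The ratio of Erbb2 to Erbb3 counts within a library, which needs no scaling between libraries, was 2.35, 2.57 and 2.44 at time 0, 2.41, 2.51 and 2.56 at 12 hours and 1.61, 1.85 and 1.73 at 24 hours. Every library of 24 hours had fewer Erbb2 counts per Erbb3 count than any library of the earlier times. The mean log2 ratio was lower by 0.51 at 24 hours than at time 0 (exact two-sided permutation test, p = 0.10) and changed by 0.02 at 12 hours (exact two-sided permutation test, p = 0.70). With 3 libraries against 3 this test cannot give a p below 0.10. Erbb2 had more counts than Erbb3 in all 9 libraries.

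**Figure D2:**
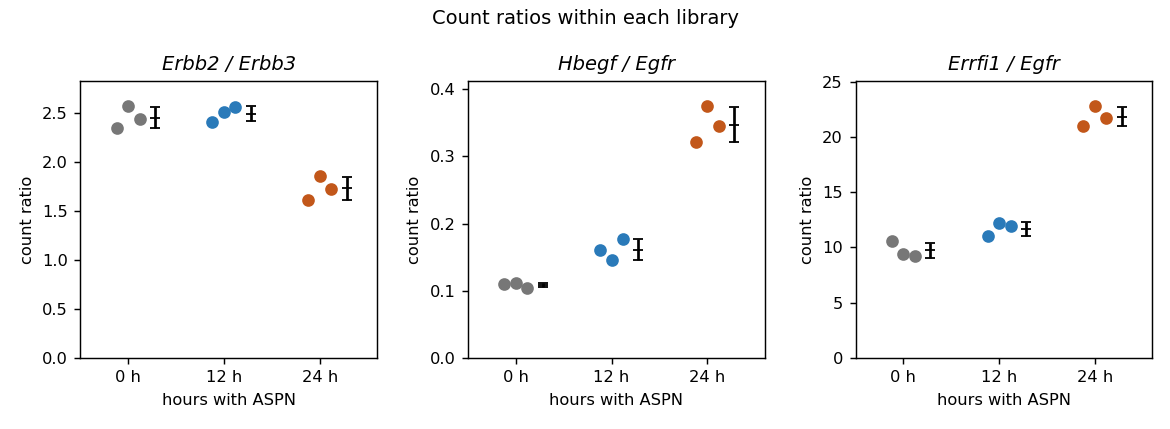
Ratio of counts within each library (y axis, from 0) at 0, 12 and 24 hours with ASPN (x axis) for Erbb2 over Erbb3, Hbegf over Egfr and Errfi1 over Egfr; points are libraries and bars are the mean ± SD of 3. The Erbb2 to Erbb3 ratio is 2.35 to 2.57 at time 0 and 1.61 to 1.85 at 24 hours, while Hbegf and Errfi1 rise relative to Egfr.

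Among the ligand genes, Hbegf was called and Tgfa and Btc were not. Hbegf (ENSMUSG00000024486.6; chromosome 18, 36504927 to 36515805, minus strand) encodes heparin-binding EGF-like growth factor, a ligand of EGFR and HER4. It had 6.55, 6.71 and 6.30 CPM at time 0, 8.92, 7.70 and 9.58 CPM at 12 hours and 14.2, 16.8 and 15.7 CPM at 24 hours. The 3 times followed each other without overlap, and the counts behind them were 313 to 344, 358 to 419 and 580 to 808. Its log2 fold change was 0.42 at 12 hours (SE 0.10, edgeR adjusted p = 0.0085, and up to 0.061 without 1 of the libraries), 1.26 at 24 hours (SE 0.09, edgeR adjusted p = 4.1e-08) and 0.85 between 12 and 24 hours (SE 0.09, edgeR adjusted p = 2.4e-06). Of the 11444 genes tested at 24 hours, 221 had a higher value. Relative to the receptor it binds, Hbegf had 0.105 to 0.111 counts per Egfr count at time 0, then 0.145 to 0.177 after 12 hours and 0.322 to 0.375 after 24 hours.

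Tgfa (ENSMUSG00000029999.14; chromosome 6, 86195223 to 86275719, plus strand) encodes TGF-α, which binds EGFR. Its CPM ranged from 9.62 to 11.8 for time 0, from 11.2 to 12.6 for 12 hours and from 10.6 to 13.5 for 24 hours, and the 3 times overlapped. The log2 fold change was 0.20 at 12 hours (95% interval 0.01 to 0.39, edgeR adjusted p = 0.22) and 0.18 at 24 hours (95% interval -0.06 to 0.42, edgeR adjusted p = 0.16). At 24 hours it was 0.34 after the length and GC correction (edgeR adjusted p = 0.0081) and -0.041 with total counts, so that no direction can be given. Of its exons, 118 bases overlap a gene model on the other strand.

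Btc (ENSMUSG00000082361.6; chromosome 5, 91357261 to 91402994, minus strand) encodes betacellulin, a ligand of EGFR and HER4, and was the least abundant of the 8, with 74 to 112 counts per library. Its CPM ranged from 1.52 to 1.76 for time 0, from 2.08 to 2.23 for 12 hours and from 1.96 to 2.32 for 24 hours, and each later time lay above time 0. The log2 fold change of 0.43 at 12 hours had a wide interval (95%, 0.09 to 0.77) and an edgeR adjusted p of 0.12, and that of 0.38 at 24 hours (95% interval -0.01 to 0.77) had 0.075. Both intervals reach past 1.5-fold, so that a change of that size was neither shown nor left out by these counts.

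Of the other ligand genes in the table, Egf had 21 to 59 counts per library and Nrg4 had 9 to 26, with log2 fold changes of -0.30 (95% interval -0.99 to 0.40) and -0.37 (95% interval -1.28 to 0.55) at 24 hours. Epgn (0 to 5 counts per library), Nrg2 and Nrg3 (at most 1 count in a library) did not pass the filter, and Nrg1, which encodes a HER3 ligand, was not analysed here. Of the measured ligand genes, Hbegf and Tgfa, which encode ligands of EGFR, had the most counts in every library, and the neuregulin genes had 26 or fewer.

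Btc and Epgn lie on chromosome 5 in a cluster of EGF-family genes beside the CXC chemokine genes. The stretch from 500 kb before to 500 kb beyond the pair holds 13 genes of the table, the pair included, of which 12 were tested at 24 hours, and 4 were called higher at 12 hours and 7 at 24 hours, all 7 of them chemokine genes of the CXC family, and none was called lower. Over all tested genes 1.60% were called in either direction at 12 hours, and 12.0% were called higher and 16.8% lower at 24 hours. Cxcl2, which lies between 90903871 and 90905938, differed from time 0 on the log2 scale by 6.05 after 12 hours (SE 0.15) and by 6.53 after 24 hours (SE 0.12). Mthfd2l, the gene next to Epgn in this table, had 0.15 (SE 0.07) and 0.55 (SE 0.08), and Parm1, on the other side of Btc, had 0.07 (SE 0.03) and 0.15 (SE 0.04).

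**Figure D3:**
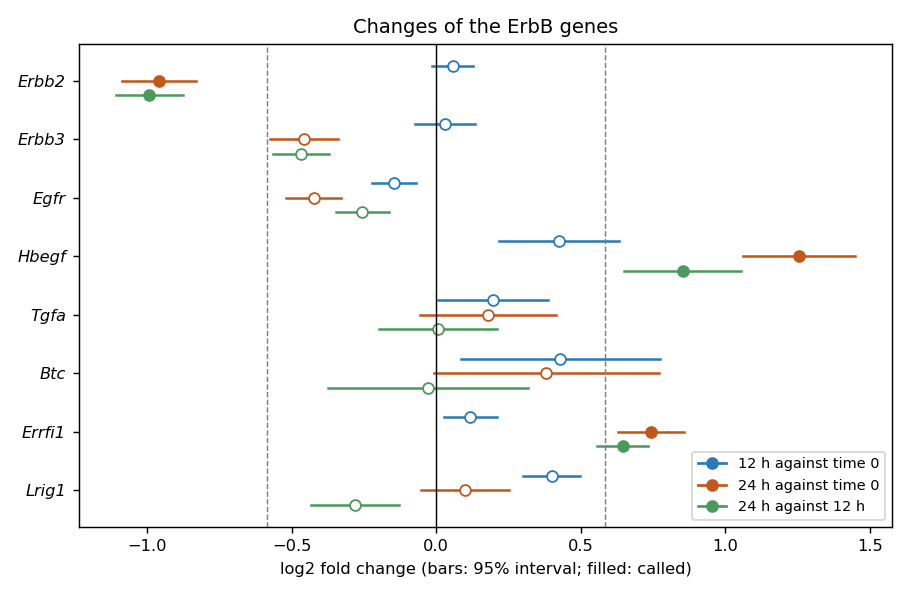
log2 fold change (x axis) with its 95% interval from edgeR for the 8 genes (y axis) in 3 comparisons; filled points were called and dashed lines mark 1.5-fold. Erbb2 is called lower, and Hbegf and Errfi1 are called higher, in both comparisons with 24 hours, while no point is filled for 12 hours against time 0.

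Of 3 tested inhibitor genes, Errfi1 was called at 24 hours, and Lrig1 and Lrig2 were called in no comparison. Errfi1 (ENSMUSG00000028967.10; chromosome 4, 150853919 to 150868892, plus strand), which encodes MIG6, had 628, 568 and 557 CPM at time 0, 608, 647 and 644 CPM at 12 hours and 929, 1019 and 982 CPM at 24 hours. The values of 0 and 12 hours overlapped, and those of 24 hours stood above all of them. Errfi1 had a log2 fold change of 0.12 at 12 hours (95% interval 0.03 to 0.21, edgeR adjusted p = 0.10), 0.74 at 24 hours (SE 0.05, edgeR adjusted p = 3.8e-08) and 0.64 between 12 and 24 hours (SE 0.04, edgeR adjusted p = 1.1e-08). The call between 12 and 24 hours was lost with total counts (0.42) and with edgeR's glmTreat at 1.5-fold (adjusted p = 0.13). With total counts it was 0.52 at 24 hours, under 1.5-fold but still with an edgeR adjusted p of 4.1e-07, against a shift of -0.24 in the median of all tested genes. Per Egfr count, a library had 9.25, 9.41 and 10.5 Errfi1 counts at time 0 and a mean of 11.7 ± 0.63 (SD, n = 3) at 12 hours, and a mean of 21.8 ± 0.89 (SD, n = 3) after 24 hours.

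Errfi1 has 2 transcript starts in RefSeq (GRCm38.p6), and the 250 bases before the downstream one, chr4:150854820-150855069 on the plus strand, are shown because Errfi1 was the inhibitor gene that was called. Capitals mark matches to the 6 motifs named above.
Errfi1: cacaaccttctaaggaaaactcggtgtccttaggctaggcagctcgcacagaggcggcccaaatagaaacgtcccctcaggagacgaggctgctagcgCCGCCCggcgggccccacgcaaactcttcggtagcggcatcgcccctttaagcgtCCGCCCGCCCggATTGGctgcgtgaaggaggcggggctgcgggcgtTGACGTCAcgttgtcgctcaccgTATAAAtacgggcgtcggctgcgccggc
It holds a cAMP response element starting 51 bases before the transcript start, which 1.5% of the 32851 windows hold, a TATA box at 28 bases (12.4%), a CCAAT box at 85 bases (33.8%) and 3 GC boxes, of which 2 overlap (32.7% hold at least 1). The window before the upstream start (chr4:150853546-150853795) matched none of the 6 motifs. Which start was used in these cells was not measured.

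Lrig1 (ENSMUSG00000030029.14; chromosome 6, 94604529 to 94700158, minus strand) was highest at 12 hours. It had 46.2, 49.8 and 49.1 CPM at time 0, 63.6, 67.7 and 59.5 CPM at 12 hours and 46.6, 58.0 and 50.5 CPM at 24 hours. All libraries of 12 hours lay above the others, and those of 0 and 24 hours overlapped. Lrig1 had a log2 fold change of 0.40 at 12 hours (SE 0.05, edgeR adjusted p = 1.3e-05), which is 1.32-fold and short of the threshold, and -0.28 between 12 and 24 hours (SE 0.07, edgeR adjusted p = 0.0030). After the length and GC correction the step from 12 to 24 hours was -0.049 (edgeR adjusted p = 0.50) and the change at 24 hours from time 0 was 0.34 (edgeR adjusted p = 8.9e-05) in place of 0.10 (95% interval -0.05 to 0.25), so that the step from 12 to 24 hours depended on this correction and the value at 12 hours, at 0.39 with it, did not. Of the Lrig1 exons, 144 bases overlap Slc25a26 on the other strand. Lrig2, a paralog, had 19.8 ± 0.48 CPM (SD, n = 3) at time 0 and 18.1 ± 0.71 (SD, n = 3) at 24 hours, with a log2 fold change of -0.13 (95% interval -0.27 to 0.01, edgeR adjusted p = 0.092). Lrig3 was not analysed here.

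Levels of different genes were compared as CPM per kilobase of annotated exon. At time 0 Errfi1 was the highest, at 163 ± 11 CPM per kilobase (SD, n = 3), followed by Erbb2 (36.2 ± 1.2), Erbb3 (12.8 ± 0.94), Lrig1 (8.66 ± 0.34), Egfr (5.30 ± 0.035), Tgfa (1.61 ± 0.18), Hbegf (1.35 ± 0.042) and Btc (0.355 ± 0.029). No neighbors in this order overlapped at time 0. At 12 hours Tgfa (1.72 to 1.93 CPM per kilobase) and Hbegf (1.59 to 1.98) overlapped. At 24 hours Hbegf (2.94 to 3.47) stood above Tgfa (1.63 to 2.08) and just below Egfr (3.95 ± 0.049, SD, n = 3), and Lrig1 (8.35 to 10.4) overlapped Erbb3 (9.07 to 9.47). Errfi1 was 272.7 CPM per kilobase at 24 hours. Among the tested genes it was at the 98.0 percentile at time 0 and at the 98.3 at 24 hours, whereas Erbb2 moved from the 89.5 to the 78.2 percentile and Hbegf from the 20.6 to the 36.8.

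**Figure D4:**
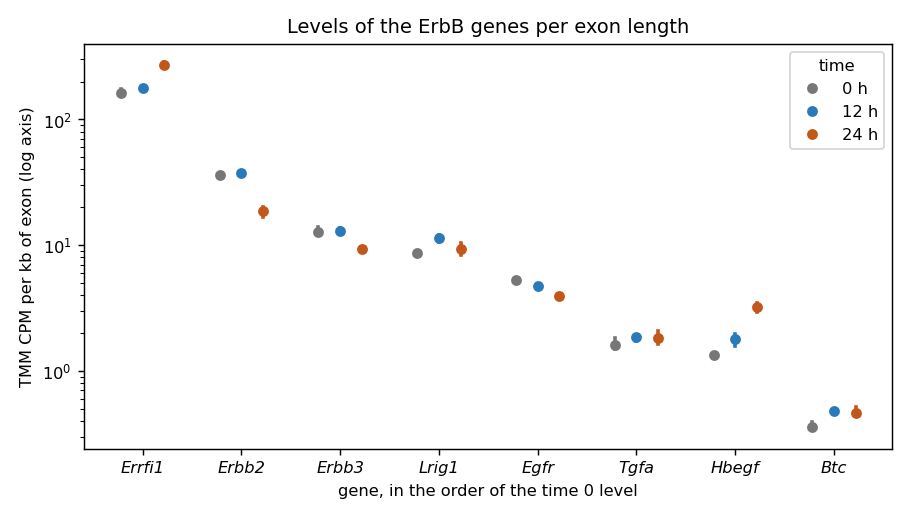
Level of each gene in TMM CPM per kilobase of annotated exon (y axis, log scale) for the 8 genes ordered by their time 0 level (x axis); points are means of 3 libraries and lines run from the lowest to the highest library. Errfi1 is the highest at each time (163 at time 0), the receptors lie between 3.90 and 38.2, and Hbegf crosses from below Tgfa at time 0 to above it at 24 hours.

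The rest of the pathway was read from lists of genes for ligand shedding, receptor ubiquitination and sorting, adaptors with PI3K and AKT, and the RAS-ERK kinases. With the other receptor, ligand and inhibitor genes, 47 genes that are not among the 8 were tested at 12 hours and at 24 hours. At 12 hours 1 of the 47 was called, higher, or 2.13% against 1.60% of all tested genes, and at 24 hours 9 were called, 6 higher and 3 lower, or 19.1% against 28.8% of all tested genes. With total counts 2 were called higher and 6 lower at 24 hours. Their median log2 fold change was 0.01 at 12 hours and 0.10 at 24 hours.

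Of 7 shedding genes, Rhbdf2 was called at 12 hours, where 1.60% of all tested genes were, and Rhbdf2 and Rhbdl2 were called at 24 hours, a share of 28.6% beside 28.8% of all tested genes. Rhbdf2, which encodes iRhom2, a partner that brings the protease ADAM17 to the cell surface, rose from 15.9 ± 1.1 CPM (SD, n = 3) at time 0 to 30.8 ± 1.9 at 12 hours and 30.1 ± 2.1 at 24 hours, and its log2 fold changes were 0.96 (SE 0.06, edgeR adjusted p = 1.1e-08) and 0.92 (SE 0.07, edgeR adjusted p = 9.3e-08). Rhbdl2, which encodes a rhomboid protease of the cell surface, had 0.97 (SE 0.08, edgeR adjusted p = 2.5e-07) at 24 hours. By the adjusted p-value alone 5 of the 7 were higher and 2 lower at 24 hours, where 70.9% of all tested genes passed it. Those higher by less than 1.5-fold were Rhbdf1, Frmd8 and Cnih4, with log2 fold changes of 0.25, 0.42 and 0.22. The sheddase genes Adam10 and Adam17, named like these 3 after their values were seen, were lower at 24 hours by less than 1.5-fold, Adam10 with a log2 fold change of -0.32 (SE 0.04, edgeR adjusted p = 1.1e-05) and Adam17 with -0.24 (SE 0.04, edgeR adjusted p = 2.1e-04).

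Of 10 tested genes for ubiquitination and sorting, 0 were called at 12 hours and 2 at 24 hours, both higher, where 28.8% of all tested genes were called at 24 hours. These were Stam, which encodes a subunit of the complex that sorts ubiquitinated receptors at endosomes, with a log2 fold change of 0.80 (SE 0.05, edgeR adjusted p = 1.5e-08), and Cd2ap, which encodes an adaptor of CBL and actin, with 0.78 (SE 0.04, edgeR adjusted p = 3.4e-09). Of the 10 RAS-ERK kinase genes, 1 was called at 24 hours, or 10% beside 28.8% of all tested genes, a difference that was not tested. This was Braf, with 0.73 (SE 0.05, edgeR adjusted p = 3.1e-08). By the adjusted p-value alone 7 of the 10 kinase genes were higher and 1 lower at 24 hours, where 70.9% of all tested genes passed it. Stam, Cd2ap and Braf fell short of 1.5-fold with total counts (0.58, 0.56 and 0.51).

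Of the 17 genes for adaptors, PI3K and AKT, 0 were called at 12 hours and 4 at 24 hours, 3 lower and 1 higher, or 23.5% where 28.8% of all tested genes were called. The median log2 fold change of the list was -0.25 at 24 hours, and that of all tested genes was -0.016. Pik3r1, which encodes the main regulatory subunit of PI3K, fell from 24.2 ± 0.68 CPM (SD, n = 3) at time 0 to 10.6 ± 0.31 after 24 hours, which is -1.19 on the log2 scale (SE 0.07, edgeR adjusted p = 4.6e-09). Plcg1, which encodes the phospholipase PLCγ1, had -0.96 (SE 0.05, edgeR adjusted p = 9.4e-10). Pik3ca, named after its value was seen, encodes a catalytic subunit of PI3K and was also called lower, with -0.62 (SE 0.05, edgeR adjusted p = 9.4e-08), which is 1.54-fold and just past the threshold. The lower calls fell from 3 to 2, with Pik3r1 and Plcg1 kept, in glmTreat at 1.5-fold, without replicate 3 of time 0 and without replicate 2 of 24 hours. These are mRNA levels and do not measure the phosphorylation of the proteins.

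**Figure D5:**
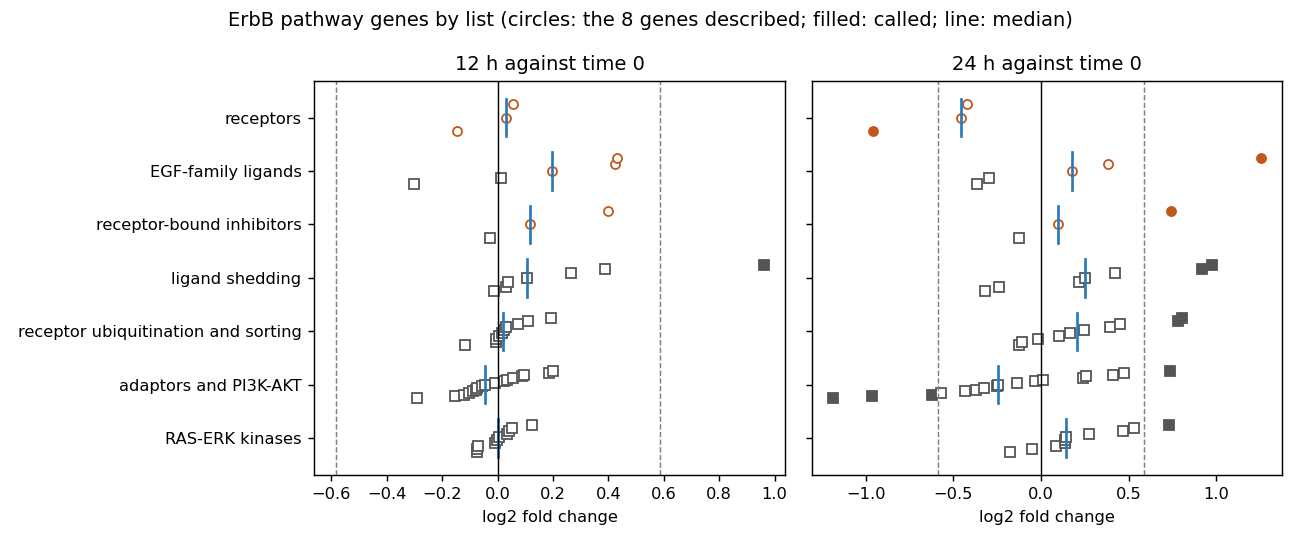
log2 fold change against time 0 (x axis) at 12 hours (left) and 24 hours (right) for each tested gene of 7 lists (y axis); circles are the 8 ErbB genes, squares are other pathway genes, filled symbols were called, blue lines are list medians and dashed lines mark 1.5-fold. At 12 hours the only filled symbol is Rhbdf2 (0.96), and at 24 hours the receptors lie below 0 while Hbegf (1.26) has the highest value.

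Over the 9 libraries the genes with the most similar course to each of the 8 were found by Pearson's r of log2 CPM, as a description, since all points share the same libraries and the 3 times. Of 8349 other genes with at least 10 CPM, 1561 had an r of 0.95 or more with Erbb2 (the highest being Arf3 and B4galt1, r = 0.999), 1284 with Errfi1 (Pea15a, r = 0.998, and Upk3bl, r = 0.996), 884 with Erbb3 (Gnao1, r = 0.989, and Rere, r = 0.988), 592 with Egfr (Kcnk1, r = 0.996, and Ubqln2, r = 0.995) and 453 with Hbegf (Myof and Orc1, r = 0.993). Of 8350 genes set beside Btc, 2 reached 0.95 (Ripk2, r = 0.962, and Mvp, r = 0.952). No gene reached it with Lrig1 (Tspan5, r = 0.946, and Bid, r = 0.943) or with Tgfa (Sgms2, r = 0.895, and Fam20b, r = 0.894). Among the 3 libraries of 24 hours, replicate 2 held the highest CPM value for 7 of the 8 genes, those that rose and those that fell alike. At time 0 replicates 1 and 2 held it for 4 genes each, and at 12 hours replicate 1 held it for 5. The share of all tested genes was not counted, so that these numbers have no background.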

How the data were processed

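The authors trimmed paired-end TruSeq mRNA reads with Cutadapt 4.5, aligned them with STAR 2.7.11a to GRCm38.p6 and counted reads per gene with featureCounts 2.0.2. Whether counting used strand is not given in the sources used here. The deposited values are raw counts without normalization, and each of the 9 count columns carries the time and replicate of a sample title. R 4.3.3 was used with DESeq2 1.42.0, limma 3.58.1 and edgeR 4.0.16. Each comparison took its 6 libraries alone: filterByExpr removed low genes, TMM gave the scaling, and the quasi-likelihood test of edgeR ran over every gene left, with Benjamini-Hochberg adjustment. Here the main test was edgeR's in place of the study's DESeq2, which was an alternative. For CPM, TMM factors were computed from all 9 libraries. Exon lengths came from GENCODE M21, in which 15374 of 15384 genes were found by identifier, and promoters from RefSeq. The members and lists were chosen with earlier results of these data known. Genes named are the 8 members, at most 3 called genes of each pathway list by absolute log2 fold change, genes of other lists that are named as chosen after their values were seen, genes within 500 kb of the chromosome 5 ligand cluster, and the 2 genes most like each member. Some genes of these lists are not reported here. The calculations were tested on simulated data. Alternatives were RLE, upper-quartile and total-count scaling, DESeq2, limma-voom, no filter, 10 counts in every library, all 9 libraries in 1 fit, the replicate block, the adjusted p alone, glmTreat, a correction for exon length and transcript GC content (loess, span 0.3) without and with the block, and leaving out each library.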

Additional observations from a re-analysis of the deposited data

Results flagged for a closer look

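Of the 8 ErbB genes, 3 were called in a direct test of 24 hours against 12 hours, at 1.5-fold or more and an adjusted p-value of 0.05 or less. By the adjusted p-value alone 6 of the 8 passed, as did 71.3% of all tested genes. The log2 fold change of 24 hours against 12 hours was -0.99 for Erbb2, 0.85 for Hbegf and 0.64 for Errfi1 (edgeR's quasi-likelihood test, adjusted p = 2.7e-09, 2.4e-06 and 1.1e-08), and the 3 libraries of each time did not overlap in any of them, as in 73.8% of all tested genes. Of all tested genes, 25.7% were called in this comparison. The Errfi1 call was lost with total counts (0.42) and with glmTreat at 1.5-fold (adjusted p = 0.13).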

How the results depend on the processing

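The counts of called genes moved by more than 1.5 times when the fold threshold was dropped. With the adjusted p alone, 3 of the 8 ErbB genes passed at 12 hours in place of 0, 5 at 24 hours in place of 3 and 6 between 12 and 24 hours in place of 3, and of the other pathway genes 6, 35 and 33 passed in place of 1, 9 and 7. With single libraries left out, 0, 3 and 3 ErbB genes and 1, 8 to 9 and 7 to 8 pathway genes were called. The log2 fold change of Erbb2 at 24 hours was -1.02 to -0.89 in these analyses, that of Hbegf 1.20 to 1.31 and that of Errfi1 0.71 to 0.82. The call of Errfi1 between 12 and 24 hours was lost with total counts (0.42) and with glmTreat (adjusted p = 0.13), and the cause was not tested. Changes near 0 turned sign. Erbb3 at 12 hours was -0.013 to 0.093 with single libraries left out, Tgfa between 12 and 24 hours -0.10 to 0.077 and Btc -0.12 to 0.015. Tgfa was -0.041 at 24 hours with total counts, and between 12 and 24 hours -0.22 with total counts, -4e-04 with at least 10 counts in every library and -0.013 with all 9 libraries in 1 fit. Lrig1 was -0.12 at 24 hours with total counts. Stam at 12 hours was -0.0092 with upper-quartile factors, -0.015 with total counts, -0.035 with the length and GC correction and -0.034 with that correction and the block, and -0.020 to 0.035 with single libraries left out. Rhbdf2 between 12 and 24 hours was 0.0063 with upper-quartile factors and 0.25 with the length and GC correction, without or with the block, and -0.077 to 0.031 with single libraries left out. The Erbb2 to Erbb3 ratio at 12 hours was -0.0057 to 0.058 on the log2 scale without 1 of the libraries, while for 24 hours it was -0.56 to -0.45, and between 12 and 24 hours -0.58 to -0.48.
The replicate numbers are shared between times, but libraries with the same number did not deviate together (mean correlation -0.03, -0.08 and 0.02 in the 3 comparisons). With the replicate block 0, 3 and 3 ErbB genes and 1, 9 and 7 pathway genes were called, and the block changed none of these counts. For the ratio, paired differences gave an exact p of 0.25 at 24 hours, the smallest that 3 pairs allow.
Of the 8 genes Btc had the fewest counts, and Erbb4, Epgn, Nrg2 and Nrg3 had too few to be tested.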
